A study of Mus musculus with 16 samples.

Results

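The genes followed through oocyte growth encode 7 germ-cell transcription factors of follicle formation, Sohlh1, Sohlh2, Figla, Nobox, Lhx8, Taf4b and Tbpl2. They were chosen by name, and all 7 were found among the 25965 entries of the gene table. All libraries came from pooled oocytes of wild-type C57BL/6 mice (C57BL/6Babr in the methods of the study), isolated without any treatment and sorted by diameter. RNA-seq covered oocytes of 10–30 μm (females of post-natal day 5 to 7), 40–45 μm (day 7 to 12), 50–55 μm (day 9 to 14) and 60–65 μm (day 13 to 16), with 2 libraries, A and B, per size class. A single RNA-seq library came from germinal vesicle (GV) oocytes, the fully grown stage, of day 20. The ages are those of the study's methods, and its supplementary table gives slightly different ranges. DNA methylation was measured by reduced representation bisulphite sequencing (RRBS), which reads CpGs near MspI sites, in 2 libraries of each of the 3 larger size classes (40–45 μm and above), and by post-bisulphite adaptor tagging (PBAT), which reads the whole genome, in 1 library of 60–65 μm oocytes. The letters A and B are not stated to mark separate groups of mice, so the p-values below measure the spread between these libraries.

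SOHLH1, SOHLH2 and FIGLA are basic helix-loop-helix (bHLH) proteins, which bind the E-box, CANNTG. NOBOX and LHX8 are homeodomain proteins, LHX8 carrying LIM domains as well. TAF4B is a germ-cell-enriched subunit of TFIID, the complex that binds core promoters, and TBPL2 is an oocyte paralogue of the TATA-binding protein. Mice lacking these factors lose oocytes around the formation or activation of primordial follicles, or fail later in follicle growth. Mouse oocytes start growth with little DNA methylation and acquire it during growth, mainly over transcribed gene bodies.

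The stretches before the start of 4 members are shown because E-boxes are the sites that 3 of the 7 proteins bind. Of the 4, Sohlh1 and Tbpl2 fell during growth, and Nobox and Lhx8 passed no test of a change. The number of E-boxes did not separate falling from other genes across the 6 windows searched, since Figla and Sohlh2, which also fell, held as many as Nobox or fewer. The sequences precede RefSeq starts on build GRCm38.p6 and run 5′ to 3′ on the strand of the gene. They leave out annotated exons and have each E-box in capitals. They lie at chr2:25847249-25847498 (Sohlh1, minus strand), chr2:24096596-24096845 (Tbpl2, minus strand), chr6:43309555-43309804 (Nobox, minus strand) and chr3:154330660-154330810 (Lhx8, minus strand). The Lhx8 stretch is only part of its searched window, chr3:154330561-154330810, because the bases nearest the RefSeq start were left out. The whole Lhx8 window, like the stretch shown, held 0 E-boxes.
Sohlh1: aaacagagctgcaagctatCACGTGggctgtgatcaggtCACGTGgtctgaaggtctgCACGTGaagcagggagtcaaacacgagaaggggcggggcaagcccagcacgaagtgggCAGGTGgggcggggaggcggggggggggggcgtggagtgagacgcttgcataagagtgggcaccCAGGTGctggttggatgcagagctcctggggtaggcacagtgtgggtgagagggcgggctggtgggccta
Tbpl2: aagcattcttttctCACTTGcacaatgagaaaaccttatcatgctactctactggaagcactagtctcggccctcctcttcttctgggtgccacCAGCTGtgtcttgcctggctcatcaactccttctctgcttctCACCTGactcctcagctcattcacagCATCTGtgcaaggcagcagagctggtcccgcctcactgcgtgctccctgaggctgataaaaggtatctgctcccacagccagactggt
Nobox: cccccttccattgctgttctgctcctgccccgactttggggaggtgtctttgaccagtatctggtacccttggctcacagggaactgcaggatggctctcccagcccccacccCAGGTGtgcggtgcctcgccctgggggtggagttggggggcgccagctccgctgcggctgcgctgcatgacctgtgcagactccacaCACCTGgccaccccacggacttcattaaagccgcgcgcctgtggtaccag
Lhx8: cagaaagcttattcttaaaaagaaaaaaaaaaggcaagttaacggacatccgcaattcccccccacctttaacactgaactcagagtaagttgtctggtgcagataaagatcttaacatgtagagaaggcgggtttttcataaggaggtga

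RefSeq windows were at hand for 6 members, all but Taf4b. In the 250 bases before the RefSeq start, with both strands searched, Sohlh1 had 5 matches to CANNTG, Tbpl2 had 4, Nobox and Figla had 2 each, Sohlh2 had 1 and Lhx8 had 0. Of all 32851 windows of this length in the table, 66.2% held at least 1 match, 3.84% held 4 or more and 1.15% held 5 or more. Of the 5 matches before Sohlh1, 3 read CACGTG, a subset of CANNTG that holds a CpG and was searched after this window had been seen. At least 1 CACGTG stood in 6.02% of all windows, and 3 or more in 20 of the 32851 (0.0609%). The homeodomain hexamers TAATTA and TAATTG, found in 4.84% and 7.17% of windows, and the TATA-box form TATAAA, found in 12.4%, had 0 matches in the 6 windows. These are matches of letters and were not tested for binding.

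The libraries carried the markers of oocytes. The summed level of 9 oocyte markers, among them Zp3, Gdf9 and Nlrp5, was 1795 to 2700 RPKM (reads per kilobase of transcript and per 1e+06 reads, a level per length) across the 9 RNA-seq libraries. The 10 granulosa cell markers summed to 2.12 to 2.52 RPKM at 10–30 μm and to 7.36 to 7.90 RPKM at 60–65 μm, and none of the 10 was listed at 0 in every library of any class. Of the 10, Gata4, Nr5a2 and Inha were high enough to be tested, and from 10–30 to 60–65 μm they rose 5.15-fold (limma adjusted p = 1.2e-05), 3.02-fold (1.6e-05) and 2.38-fold (0.00052). Most of the sum was Nr5a2, at a mean of 4.70 RPKM at 60–65 μm. Foxl2 and Amh, also on the list, were at 0.0507 and 0.209 RPKM there. The 8 stroma, blood and vessel markers summed to between 1.94 and 6.09 RPKM in any library. The part of such cells in the changes of the members was not tested. Because RPKM is a share of a library, less RNA of a gene and more RNA of other genes per oocyte cannot be told apart. In single-transcript genes 1 read in a transcript of 1 kb was worth 0.00504 to 0.0101 RPKM (85.4 to 87.6% of values up to 5 reads lay within 0.05 of a whole number), so the lowest member value, Sohlh1 in GV oocytes, stood for about 70 reads. The methylation libraries held 29942043 to 57215134 (RRBS) and 98148116 (PBAT) calls, a call being 1 read at 1 CpG cytosine.

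The 4 members that fell were all 3 bHLH genes and Tbpl2, while both homeobox genes and Taf4b were not called in any comparison. Sohlh1 stood at 49.6 and 45.0 RPKM in the 10–30 μm libraries A and B, at 8.99 and 13.4 at 40–45 μm, at 2.98 and 3.51 at 50–55 μm, at 1.17 and 1.74 at 60–65 μm, and at 0.274 in the GV library. No 2 size classes overlapped, and each class lay below the one before it. Sohlh1 fell 31.0-fold from 10–30 to 60–65 μm (log2 change -4.95, SE 0.22, limma adjusted p = 5.8e-06). This was the lowest log2 change of all 10518 genes tested in that comparison, which were those of at least 0.5 RPKM in 2 of the 8 growing-oocyte libraries. The GV value was 5.30-fold below the 60–65 μm mean, with no replicate and no test. Sohlh2, whose protein pairs with SOHLH1, had 8.36 and 8.18 RPKM at 10–30 μm, 3.16 and 4.69 at 40–45 μm, 2.12 and 2.70 at 50–55 μm, 1.17 and 1.49 at 60–65 μm, and 0.992 in GV oocytes. Its classes did not overlap either, and it fell 5.87-fold from 10–30 to 60–65 μm (log2 change -2.55, SE 0.19, limma adjusted p = 1.8e-05).

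Figla, known as an activator of the zona pellucida genes, had 52.7 and 45.0 RPKM at 10–30 μm, 28.7 and 28.8 at 40–45 μm, 16.3 and 15.99 at 50–55 μm, 11.6 and 12.6 at 60–65 μm, and 8.87 in the GV library. It fell 3.99-fold from the smallest to the largest growing class (log2 change -1.997, SE 0.12, limma adjusted p = 8.0e-06), again with no overlap between classes. Tbpl2 had 17.9 and 18.6 RPKM at 10–30 μm, 12.9 and 13.4 at 40–45 μm, 10.4 and 9.54 at 50–55 μm, 7.84 and 8.92 at 60–65 μm, and 7.40 in GV oocytes. Its 4 classes were also separate, and its fall over the whole interval was 2.17-fold (log2 change -1.12, SE 0.10, limma adjusted p = 4.1e-05).

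Nobox was the most abundant member in every class. It had 56.0 and 58.3 RPKM at 10–30 μm, 44.4 and 55.5 at 40–45 μm, 54.1 and 56.3 at 50–55 μm, 59.5 and 59.2 at 60–65 μm, and 66.3 in the GV library. Library A at 40–45 μm was the lowest, and the other 7 growing-oocyte libraries lay between 54.1 and 59.5 RPKM. The log2 difference of Nobox between 60–65 and 10–30 μm was 0.06 with a 95% interval from -0.19 to 0.31 (limma adjusted p = 0.67). Lhx8 had 16.9 and 18.1 RPKM at 10–30 μm, 15.6 and 16.001 at 40–45 μm, 16.1 and 16.02 at 50–55 μm, 17.5 and 15.0 at 60–65 μm, and 15.1 in GV oocytes. The 3 smaller classes did not overlap each other, and the 60–65 μm libraries spanned the range of the 40–45 and 50–55 μm classes and reached into that of 10–30 μm. Its log2 difference over the same interval was -0.11, from -0.33 to 0.12 (limma adjusted p = 0.37). Taf4b had 4.14 and 4.61 RPKM at 10–30 μm, 4.06 and 4.31 at 40–45 μm, 4.90 and 4.64 at 50–55 μm, 4.82 and 4.96 at 60–65 μm, and 5.42 in the GV library. Every Taf4b library at 50–55 and 60–65 μm lay above every library at 10–30 and 40–45 μm, though no test of a change passed. The log2 difference of Taf4b between 60–65 and 10–30 μm was 0.16, from -0.04 to 0.36 (limma adjusted p = 0.15). The annotated span of Taf4b also holds a processed pseudogene.

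**Figure D1:**
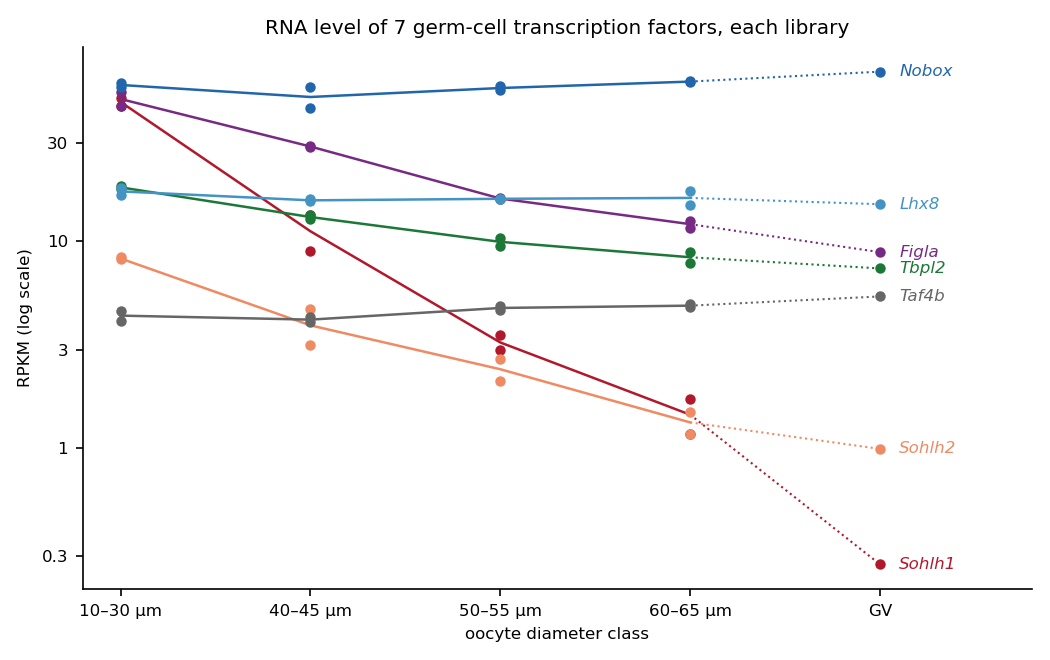
RNA level (RPKM, log scale) of the 7 genes in each library, by oocyte diameter class, with lines through the class means and dotted lines to the single GV library. Sohlh1 drops from a mean of 47.3 to 1.45 RPKM between 10–30 and 60–65 μm, whereas Nobox, Lhx8 and Taf4b stay within 1.34-fold, 1.21-fold and 1.22-fold across the 8 growing-oocyte libraries.

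The falls reordered the set. At 10–30 μm Nobox (57.1 ± 1.61 RPKM, SD, n = 2) was followed by Figla (48.9 ± 5.44) and Sohlh1 (47.3 ± 3.31), whose libraries overlapped, then by Tbpl2 (18.3 ± 0.473) and Lhx8 (17.5 ± 0.862), which also overlapped, and by Sohlh2 (8.27 ± 0.127) and Taf4b (4.38 ± 0.329). At 60–65 μm the order was Nobox (59.3 ± 0.218 RPKM, SD, n = 2), Lhx8 (16.2 ± 1.81), Figla (12.1 ± 0.711), Tbpl2 (8.38 ± 0.765), Taf4b (4.89 ± 0.0975), Sohlh1 (1.45 ± 0.404) and Sohlh2 (1.33 ± 0.223), and of these neighbours only Sohlh1 and Sohlh2 overlapped. Among the genes tested, Sohlh1 stood above 97.9% by level at 10–30 μm and above 27.9% at 60–65 μm. Nobox stood above 98.4% in both classes.

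For each of the 4 falling genes the first 2 steps, up to 50–55 μm, made up most of the log2 change to 60–65 μm. For Sohlh2 the last step (log2 change -0.83) was no smaller than the second (-0.70). From 10–30 to 40–45 μm, 4 of the 7 members fell and 0 rose, beside 9.76% of all tested genes that fell and 13.2% that rose. Without scaling between libraries the split of all genes turned from 1388 rising and 1027 falling to 1088 and 1521, and the calls of the 7 members stayed as they were. The counts of all genes also moved with single libraries left out and with only the classes compared, as given in the closing section. Sohlh1 fell 4.07-fold in this step (limma adjusted p = 0.00099), Sohlh2 2.02-fold (0.0084), Figla 1.61-fold (0.0063) and Tbpl2 1.32-fold (0.024). The call of Tbpl2 was lost without 10–30 μm library A (limma adjusted p = 0.077) and without either 40–45 μm library (0.096 without A and 0.077 without B), and that of Sohlh2 without 40–45 μm library A (0.053).

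From 40–45 to 50–55 μm, 3 members fell and 0 rose, beside 3.45% of all genes that fell and 5.27% that rose. These shares stand for 363 and 554 genes, which ranged from 0 to 766 and from 0 to 903 with 1 library left out, both at 0 without 40–45 μm library B or 50–55 μm library A. Sohlh1 was 3.41-fold lower (limma adjusted p = 0.012), the lowest change of all tested genes on the scale of log2(RPKM + 0.1). Figla was 1.83-fold lower (limma adjusted p = 0.014) and Tbpl2 1.35-fold lower (0.037). Sohlh2 was 1.63-fold lower but missed the threshold (limma adjusted p = 0.056). It passed without 10–30 μm library A or 40–45 μm library A, at log2 changes of -0.71 and -0.95. It also passed with the replicate letter as a block, as given in the closing section. All 3 calls were lost without 40–45 μm library B or without 50–55 μm library A, at log2 changes of -1.51 and -1.66 for Sohlh1, -0.90 and -0.88 for Figla and -0.44 and -0.49 for Tbpl2. The call of Tbpl2 was also lost without 40–45 μm library A, 50–55 μm library B or either 60–65 μm library (limma adjusted p from 0.069 to 0.21), when any gene above 0 was kept (0.058) and with only the classes compared (0.051).

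From 50–55 to 60–65 μm, 0 members were called. Limma called 0 genes of any kind, so the share was 0% in both directions, and the smallest adjusted p was 0.13, with 756 genes higher and 684 lower at an unadjusted p under 0.05. With the replicate letter as a block some genes passed, Sohlh1 and Sohlh2 among them, as given in the closing section. The log2 differences of the 4 falling genes remained below 0, at -1.16 for Sohlh1 (95% interval -1.66 to -0.66, limma adjusted p = 0.13), -0.83 for Sohlh2, -0.44 for Figla and -0.28 for Tbpl2. Over the whole interval from 10–30 to 60–65 μm, 4 members fell and 0 rose, beside 31.8% of all genes that fell and 31.5% that rose. The median log2 change of the 7 was -1.12, beside 0.00 over all tested genes. From 40–45 to 60–65 μm, the interval shared with RRBS, the same 4 members fell, by 7.61-fold (Sohlh1), 2.91-fold (Sohlh2), 2.48-fold (Figla) and 1.64-fold (Tbpl2), beside 18.9% of all genes falling and 18.5% rising. Both shares moved with single libraries left out, as given in the closing section. These 5 comparisons share libraries and are not independent of each other.

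**Figure D2:**
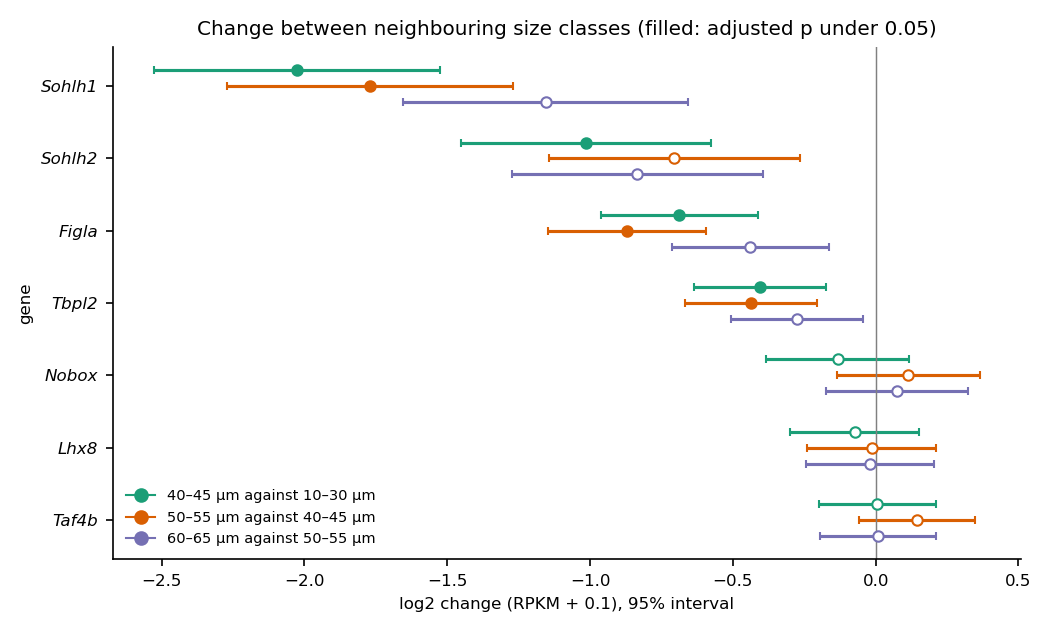
Log2 change of each gene between neighbouring size classes with its 95% interval from the fit, filled where the adjusted p was under 0.05. Intervals of Sohlh1, Sohlh2, Figla and Tbpl2 lie left of 0 in every step, and those of Nobox, Lhx8 and Taf4b hold 0 in every step.

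Genes known as targets of these factors moved in both directions. Of 8 such genes tested from 10–30 to 60–65 μm, 3 rose, 3 fell and 2 were not called (median log2 change -0.05, beside 0.00 over all genes). These shares were near those of all tested genes in this comparison, of which 31.5% rose and 31.8% fell. Bmp15 and Gdf9, which encode oocyte growth factors that act on granulosa cells, rose 3.21-fold (limma adjusted p = 1.1e-05) and 1.28-fold (0.019), and Oosp1 rose 2.18-fold (0.0019). Zp2 and Zp3, which encode egg coat proteins, fell 1.59-fold (limma adjusted p = 0.0022) and 1.29-fold (0.048), and Pou5f1 fell 1.203-fold (0.034). Zp2 was still at a mean of 677 RPKM at 60–65 μm, when Figla was at 12.1. Zp1, at 257 and then 264 RPKM, and Kit, at 31.5 and then 27.7 RPKM, were not called.

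Of 19 other genes of the TBP family, TFIID subunits and TFIIA, 7 rose, 6 fell and 6 were not called from 10–30 to 60–65 μm (median log2 change -0.03). TFIIA is the partner of TBP-type proteins. The shares were again near the 31.5% of all genes that rose and the 31.8% that fell. Tbpl1, the other TBP-like gene, fell 2.65-fold from a mean of 3.44 to 1.24 RPKM (limma adjusted p = 1.6e-05), the same direction as Tbpl2. Tbp itself was at 2.11 and 2.06 RPKM and was not called, and the mean level of Tbpl2 was above that of Tbp in all classes, GV oocytes included (7.40 against 2.09 RPKM). Taf4a, the widely expressed paralogue of Taf4b, rose 1.98-fold from 2.72 to 5.19 RPKM (limma adjusted p = 0.014), while Taf4b went from 4.38 to 4.89 RPKM without a call. The difference between the paralogues was not tested. Among TFIIA genes, Gtf2a1l, its germ-cell form, rose 1.78-fold (limma adjusted p = 1.0e-04) and Gtf2a1 1.75-fold (0.00023), whereas Gtf2a2 fell 1.54-fold (0.0034).

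Of 9 genes for dimer or complex partners 7 were tested. From 10–30 to 60–65 μm, 1 rose, 3 fell and 3 were not called (median log2 change -0.33), beside the same 31.5% and 31.8% over all genes. Tcf12, an E protein that can dimerise with bHLH factors, fell 1.76-fold (limma adjusted p = 0.0031). Ldb1, the adaptor of LIM-homeodomain proteins such as LHX8, rose 1.71-fold (limma adjusted p = 0.00040), and Ssbp4 and Lmo4 fell 1.61-fold and 1.46-fold (0.0046 and 0.020). Stat3, Dynll1 and Sub1, which were used with several of these factors to turn stem cells into oocyte-like cells, all fell, by 2.58-fold (limma adjusted p = 7.8e-05), 1.74-fold (0.0018) and 2.09-fold (0.00021). Only 2 of 11 other LIM-homeobox genes, Isl1 and Isl2, were high enough to be tested. Both fell, by 1.42-fold (limma adjusted p = 0.019) and 1.39-fold (0.0060), and Isl2, the highest of the 11, was at 3.58 RPKM at 60–65 μm, beside 16.2 RPKM for Lhx8. The 9 oocyte markers, 3 of which are also among the 8 target genes, gave 1 rise and 4 falls. Of the 3 tested stroma, blood and vessel markers, 1 rose and 2 fell. Pecam1 rose from a mean of 0.549 RPKM at 10–30 μm to 4.45 at 60–65 μm. Col1a1 fell from 1.39 to 0.320 RPKM and Col1a2 from 0.678 to 0.209 RPKM.

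The genes with the most similar course were found by the root mean square (RMS) difference of centred log2 levels over the 8 growing-oocyte libraries, among 10517 other genes. For Sohlh1 these were Rbm46 (0.51), Mageb4 (0.62) and Marcksl1 (0.67), all at a distance larger than for any other member. Rbm46 went from a mean of 2.43 RPKM at 10–30 μm to 0.0842 at 60–65 μm. The closest genes to Sohlh2 were Myl12b (0.062), Stard10 (0.067) and Kifap3 (0.096). Those to Figla were Ufc1 (0.067), Fkbp6 (0.081) and 2810405K02Rik (0.083), and those to Tbpl2 were Ap3s1 (0.041), Mrpl30 (0.049) and D030056L22Rik (0.053). For the level genes the distances were smaller, and so were their own courses. Nobox lay nearest to Arfgap2 (0.029), an entry of Mical3 (0.031) and D330012F22Rik (0.037), Lhx8 to Klhdc10 (0.034), Csnk1g3 (0.038) and Gna13 (0.041), and Taf4b to Ftsjd2 (0.030), Aars2 (0.032) and Lig3 (0.034). The RMS of the course itself was 1.88 for Sohlh1, 0.95 for Sohlh2, 0.78 for Figla, 0.43 for Tbpl2, 0.097 for Nobox, 0.082 for Taf4b and 0.067 for Lhx8.

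Gene starts of the 7 members carried 1.59% to 13.1% methylation in 60–65 μm oocytes. By PBAT, within 1 kb of the start, 27 of 1697 calls were methylated for Taf4b (1.59%, 95% Wilson interval 1.10 to 2.31), 25 of 505 for Nobox (4.95%, 3.38 to 7.21), 21 of 413 for Lhx8 (5.08%, 3.35 to 7.65), 48 of 632 for Sohlh2 (7.59%, 5.78 to 9.93), 28 of 355 for Sohlh1 (7.89%, 5.51 to 11.2), 6 of 75 for Tbpl2 (8.0%, 3.72 to 16.4) and 41 of 314 for Figla (13.1%, 9.77 to 17.2). The intervals cover counting error only. Taf4b was the lowest and Figla the highest, and their intervals did not overlap. The mean over positions with at least 5 calls was 1.71% for Taf4b, which 14.4% of 5665 expressed genes (at least 2 RPKM at 60–65 μm and 4 kb long, median 3.39%) undercut, and 17.8% for Figla, which 97.2% of them undercut. Figla spans 3806 bases and is itself shorter than the 4 kb that defined these genes. With positions of at least 1 call the Figla start was 10.9%. The other 5 starts also lay in the upper part of that range, above 80.04% (Nobox), 88.9% (Lhx8), 92.4% (Sohlh1), 93.0% (Sohlh2) and 94.2% (Tbpl2) of these genes. The Tbpl2 value rested on 7 positions, and all these ranks are from the single PBAT library. RRBS means in the 60–65 μm libraries A and B were lower, at 0.470% and 0% for Lhx8 and 4.21% and 0.816% for Sohlh2. For Taf4b they were 0.583% and 0.589%, also below PBAT. Sohlh1 and Sohlh2, at 1.45 and 1.33 RPKM, were themselves under 2 RPKM, and lay above 78.6% and 79.6% of 5646 starts of genes under 0.1 RPKM. The Nobox start was 5.43% here and 2.98% with 500 bases to each side, and the Sohlh2 start was 8.35% here and 5.33% with positions of at least 1 call. At the CpGs inside the 3 CACGTG matches before Sohlh1 shown above, 1 of 13, 0 of 9 and 1 of 8 PBAT calls were methylated, in order towards the start.

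Gene bodies separated the members. From 1 kb past the start to the end of the gene, PBAT found 1160 of 1784 calls methylated in Taf4b (65.0%, 95% Wilson interval 62.8 to 67.2), 143 of 236 in Tbpl2 (60.6%, 54.2 to 66.6) and 676 of 2275 in Lhx8 (29.7%, 27.9 to 31.6). It found 22 of 96 in Figla (22.9%, 15.6 to 32.3), 182 of 1225 in Sohlh2 (14.9%, 12.98 to 17.0), 13 of 156 in Nobox (8.33%, 4.93 to 13.7) and 31 of 375 in Sohlh1 (8.27%, 5.88 to 11.5). Taf4b and Tbpl2 overlapped with each other and with none of the other 5. With the mean over positions of at least 5 calls, which 5 members had at 5 or more positions, Taf4b (67.4%) lay above 91.5% and Tbpl2 (66.3%) above 89.7% of 5836 expressed genes of at least 4 kb, whose median was 49.3%. Lhx8 (27.4%) lay above 15.4% of them, Sohlh2 (16.6%) above 6.94% and Sohlh1 (6.25%) above 1.37%. With positions of at least 1 call the Sohlh1 body was 10.6%, and its rank under that setting was not computed. Sohlh1 and Sohlh2 were again below the 2 RPKM that defined these expressed genes, here and in the length classes that follow. Genes of at least 4 kb under 0.1 RPKM at 60–65 μm had a median of 8.25%, and Sohlh1 lay above 28.9% and Sohlh2 above 77.3% of them.

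RNA level and body methylation did not run in the same order among the members. Nobox had the highest RNA level, 59.3 RPKM at 60–65 μm, and one of the lowest bodies, and Taf4b, at 4.89 RPKM, had the highest body. Among 971 expressed genes of 3 to 8 kb the median of pooled calls was 34.4%, and 10.6% of them lay below Nobox, 10.6% below Sohlh1 and 34.8% below Figla. Among 897 expressed genes of 20 to 30 kb the median was 49.8%, and 2.34% lay below Sohlh2, 12.3% below Lhx8 and 78.6% below Tbpl2. Of 999 expressed genes over 80 kb, 96.3% lay below Taf4b. The 4 genes whose RNA fell spanned 8.27% to 60.6% and the 3 level genes 8.33% to 65.0%, so both sets held lowly and highly methylated bodies.

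**Figure D3:**
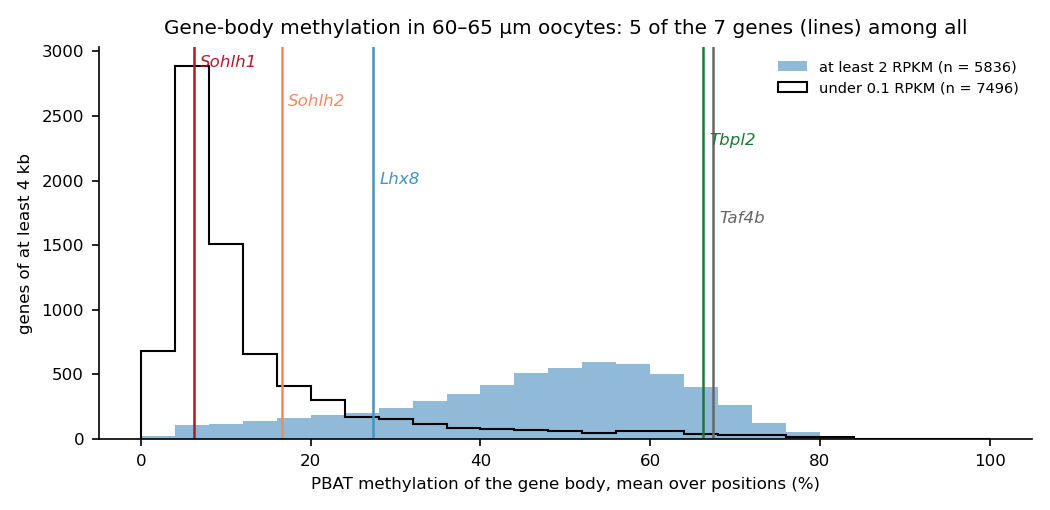
Number of genes of at least 4 kb by PBAT methylation of the gene body (mean over positions of at least 5 calls, percent) in 60–65 μm oocytes, for 5836 genes of at least 2 RPKM (filled) and 7496 genes under 0.1 RPKM (outline). Vertical lines mark Sohlh1 (6.25%), Sohlh2 (16.6%), Lhx8 (27.4%), Tbpl2 (66.3%) and Taf4b (67.4%).

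Along Taf4b, Tbpl2 and Lhx8, methylation was low at the start and high further into the gene, and in Taf4b and Lhx8 it was lower again past the end. In Taf4b (chr18:14783245-14900359, plus strand) 2.33% of 43 calls were methylated from 1 to 4 kb past the start and 66.6% of 1741 calls from there to the end (95% Wilson interval 64.3 to 68.7). Past its end the share was 25% of 84 calls in the next 5 kb. In Tbpl2 (chr2:24071721-24096595, minus strand) 62.9% of 224 calls were methylated beyond 4 kb (56.5 to 69.0), and 38.9% of 95 calls were methylated in the 5 kb past the end (29.8 to 49.0). From 5 to 10 kb past the end of Tbpl2 the share was 49.1% of 57 calls (36.6 to 61.7), which overlapped its body, and from 1 to 5 kb before its start 27.6% of 29 calls (14.7 to 45.7). Lhx8 (chr3:154306288-154330651, minus strand) was split in its body, with 65 of 1298 calls methylated from 1 to 4 kb (5.01%, 3.95 to 6.33) and 611 of 977 from 4 kb to the end (62.5%, 59.5 to 65.5). The low body value of Lhx8 therefore combined the stretch from 1 to 4 kb, with 265 of the 592 covered positions of the body, and a remainder at 62.5%, beside 62.9% in the same part of Tbpl2. In the 5 kb past its end 20.7% of 266 calls were methylated. The 4 kb boundary was chosen after the values along Lhx8 had been seen. In Sohlh2 (chr3:55182028-55209957, plus strand) no 2 kb bin within the gene was above 33.2% (76 of 229 calls, 20 to 22 kb past the start). Sohlh1 (chr2:25842995-25847248, minus strand) and Nobox (chr6:43303674-43309562, minus strand) stayed low throughout by PBAT, with 16.6% of 253 and 19.6% of 56 calls methylated in the 5 kb past their ends. In Figla (chr6:86017191-86020996, plus strand) the share was 31.9% of 216 calls in the 5 kb past its end (26.1 to 38.4), beside 22.9% in its body.

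**Figure D4:**
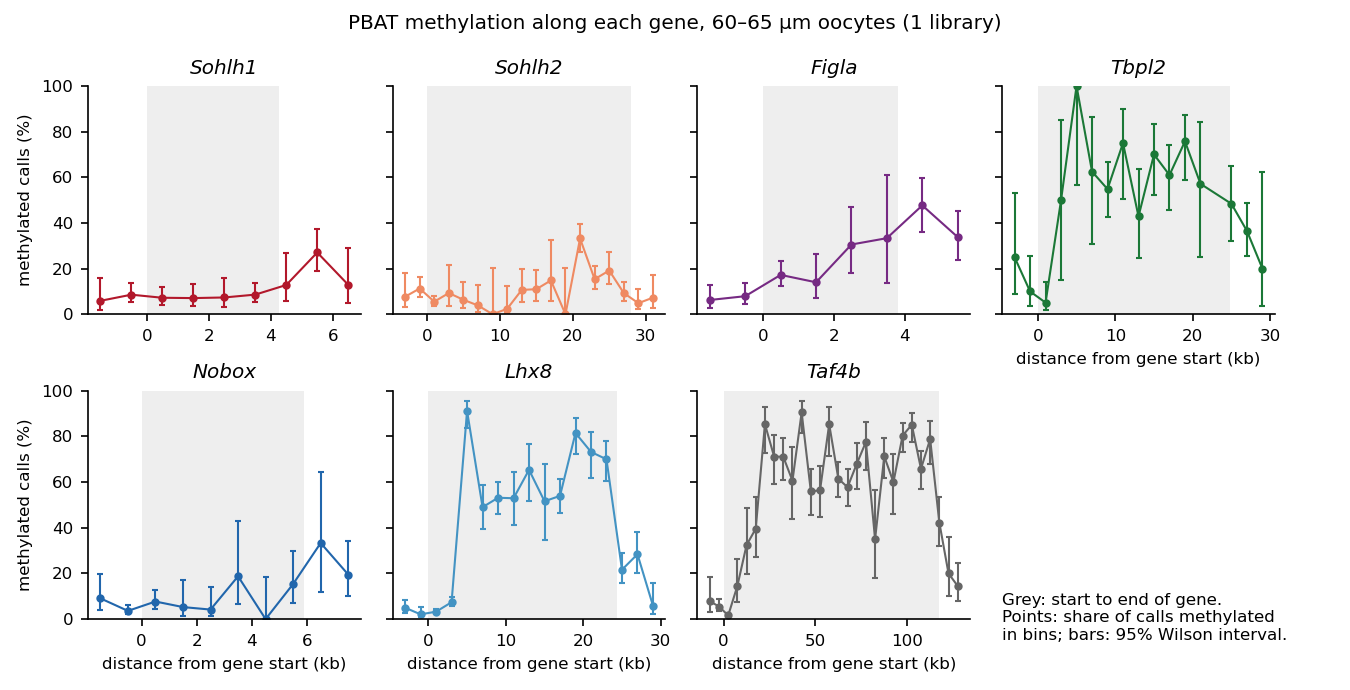
Share of PBAT calls methylated (percent, 95% Wilson interval) in bins along each gene in 60–65 μm oocytes against distance from the gene start (kb), with the span from start to end in grey. Lhx8 steps from 7.39% (2 to 4 kb) to 91.2% (4 to 6 kb), and Sohlh1 and Nobox stay low across the span.

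RRBS gave values at 5 or more positions, each with at least 5 calls, in all 6 libraries for the starts of Sohlh2, Lhx8 and Taf4b and for the body of Lhx8. The other starts and bodies had too few positions in at least 1 library. In the Nobox body 6 of 6 calls were methylated in 40–45 μm library A and 2 of 3 in 60–65 μm library A. At 50–55 μm it was 0 of 1 call in library A and 9 of 10 in library B. These calls stood at 1 to 3 positions per library, beside 13 of 156 PBAT calls methylated over the Nobox body. Mean methylation of the Sohlh2 start was 1.55% and 0.195% in the 40–45 μm libraries A and B, 1.52% and 7.65% at 50–55 μm, and 4.21% and 0.816% at 60–65 μm, with overlapping classes. The Lhx8 start had 0% and 0.273%, 0.922% and 0%, and 0.470% and 0%, and the Taf4b start 0.812% and 0.135%, 0.664% and 0%, and 0.583% and 0.589%, in the same order. The 0% of Taf4b rested on 2451 calls, which allow a share of up to 0.122% for counting error only, and PCR copies among the calls would widen that limit. None of these 3 starts was called, with differences from 40–45 to 60–65 μm of 1.64, 0.0986 and 0.112 percentage points for Sohlh2, Lhx8 and Taf4b (limma on arcsine square root values, adjusted p = 1 for each). Of 11984 gene starts tested, 1.14% rose in that interval, 0.0250% from 40–45 to 50–55 μm and 0% from 50–55 to 60–65 μm, where 689 starts differed in either direction at an unadjusted p under 0.05. The 1.14% stands for 137 starts, which became 13 with positions of at least 1 call, 0 on the percent scale and 0 without any one of the 40–45 or 60–65 μm libraries.

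The Lhx8 body rose in methylation by RRBS from 40–45 to 60–65 μm, a call that 7 of 12 alternatives did not keep, and its RNA passed no test of a change over the same interval. It had 0.848% and 0.679% in the 40–45 μm libraries A and B, 3.90% and 9.61% at 50–55 μm, and 7.15% and 9.27% at 60–65 μm. Both later classes lay above the first and overlapped each other. The difference from 40–45 to 60–65 μm was 7.45 percentage points (limma adjusted p = 0.033), beside a median of 4.49 over 7968 bodies tested, of which 43.3% rose. The steps from 40–45 to 50–55 μm (5.99 percentage points, limma adjusted p = 0.081, 31.8% of bodies rose) and from 50–55 to 60–65 μm (1.46 percentage points, adjusted p = 0.77, 18.2% rose) were not called. The shares of bodies in these steps moved with single libraries left out and with the call minimum, as given in the closing section. The call over the whole interval was lost without either 40–45 μm library (adjusted p = 0.15 without A and 0.18 without B) and without either 60–65 μm library (0.10 without A and 0.17 without B), with positions of at least 1 call (0.26) and on the percent scale (0.092). With 1 library left out the first step ranged from 3.13 to 8.85 percentage points, and it passed at the upper end, without 50–55 μm library A.

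In the start and body of Lhx8, 33 positions had at least 5 calls in all 6 RRBS libraries, which keeps the positions the same between classes. Over the 23 of them in the body the class means were 1.78% ± 0.758 at 40–45 μm, 14.5% ± 7.90 at 50–55 μm and 19.04% ± 2.40 at 60–65 μm (SD, n = 2), a wider difference than that of the tested body mean, whose positions could differ between libraries. Of the 33, 6 lay between 5885 and 5956 bases past the start and held most of the difference. Their mean was 0.877% and 4.23% in the 40–45 μm libraries A and B, 31.1% and 71.8% at 50–55 μm, and 76.9% and 58.6% at 60–65 μm. These stood for 4 of 212, 32 of 316, 76 of 224, 202 of 355, 125 of 162 and 188 of 243 calls, and in PBAT 25 of 25 calls there were methylated. Both later classes were above the first in every library. The other measured group of the body, 15 positions from 1010 to 2240 bases past the start, stayed between 0.0866% and 2.05% in all 6 libraries. The mean of the other 2 body positions, 7365 and 7401 bases past the start, ranged from 0% to 22.7%. The groups of positions were formed after their values had been seen and were not tested.

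The stretch of these 6 CpGs and, from the part that stayed low, a stretch of 4 CpGs are shown for comparison, from GRCm38, 5′ to 3′ on the strand of Lhx8 with each CpG in capitals. The first lies at chr3:154324691-154324771 in intron 3 of the longest transcript, 27 bases before the next exon, and within an exon of 1 of the 5 annotated transcripts, which retains the intron. The second lies at chr3:154328734-154328776 in intron 1.
Lhx8 intron 3: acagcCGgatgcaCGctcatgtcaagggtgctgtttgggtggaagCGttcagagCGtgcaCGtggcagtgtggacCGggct
Lhx8 intron 1: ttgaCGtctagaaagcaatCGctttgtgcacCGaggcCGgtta

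The 4 CpGs of intron 1 lie between 1880 and 1913 bases past the start. Their highest value in any library was 12.5% (40 calls, 50–55 μm library B), against 90.2% (102 calls, 60–65 μm library B) for the highest of the 6 in intron 3. The 2 intron 3 positions with most calls, 5885 and 5893 bases past the start, went from 0% and 5.26% in 40–45 μm library A (76 calls each) to 70.2% and 85.1% in 60–65 μm library A (47 calls each). In library B they went from 12.8% and 12.6% at 40–45 μm (125 and 127 calls) to 77.6% and 90.2% at 60–65 μm (98 and 102 calls). The other 4 had 5 to 17 calls per library, which limits each single value. PCR copies were not removed from RRBS reads, so calls are not independent molecules.

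**Figure D5:**
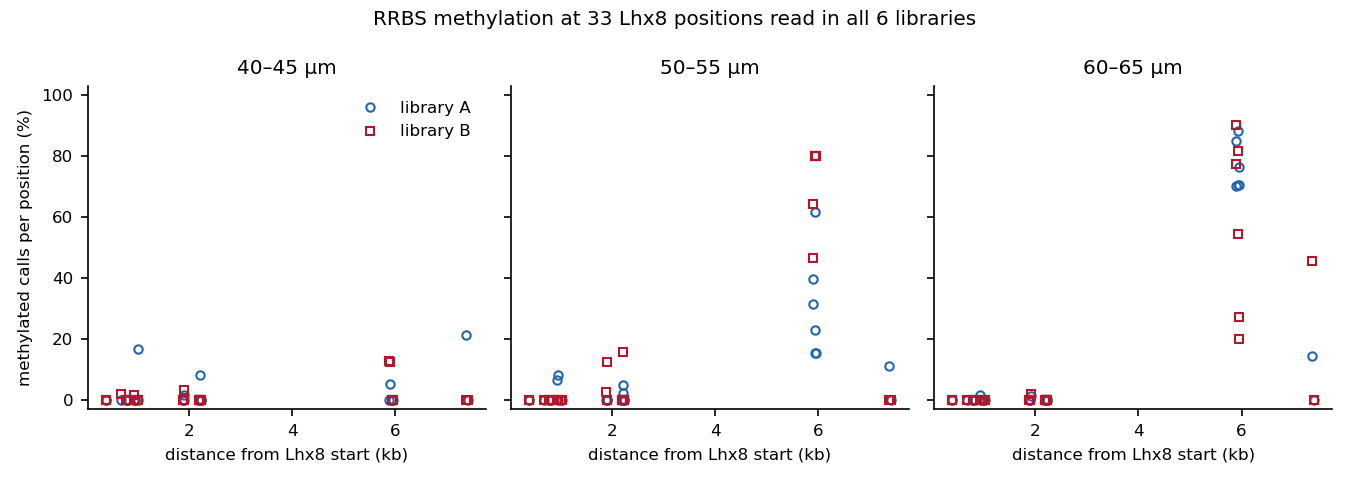
RRBS methylation (percent of calls) at each of 33 Lhx8 positions read in all 6 libraries, against distance from the gene start (kb), by size class. The 6 positions between 5885 and 5956 bases lie at 12.8% or lower at 40–45 μm and at 20% or higher at 60–65 μm, and the positions up to 2240 bases past the start stay at 16.7% or lower in every library.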

How the data were processed

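RPKM values per gene were deposited by the authors, who trimmed reads with Trim Galore and mapped them to GRCm38 with TopHat2 2.0.9. The study's methods name SeqMonk for RNA-seq analysis and Cufflinks for transcript FPKM, and do not say which made this RPKM table or how reads were counted. The authors deposited counts of methylated and unmethylated calls and the percent methylated per cytosine, from Bismark, for RRBS and PBAT, and PCR copies were kept in RRBS. Here log2(RPKM + 0.1), scaled between libraries by a trimmed mean, was fitted with limma 3.58.1 (trend, 4 classes of 2 libraries in 1 fit, GV left out) over 10518 genes of at least 0.5 RPKM in 2 libraries, with Benjamini-Hochberg adjustment and a threshold of 0.05. Folds come from that scale, which understates changes of low genes. A gene start ran 1 kb to each side of the annotated start and a body from there to the gene end. Positions needed 5 calls and regions 5 positions, and RRBS means were fitted with limma on the arcsine square root scale. PBAT shares have Wilson 95% intervals. The scripts were tested on simulated data. Scaling, pseudocounts, filters, call minimums, window widths and left-out libraries were varied. The members and gene lists were chosen with earlier results of these data known. Beside the members, the 3 genes of most similar course per member and list genes that passed the test were named. Single positions and stretches of Lhx8 were named after their values were seen.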

Additional observations from a re-analysis of the deposited data

How the results depend on the processing

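The falls of Sohlh1, Sohlh2, Figla and Tbpl2 from 10–30 to 60–65 μm and from 40–45 to 60–65 μm kept their direction and passed under every alternative run. Leaving out a library leaves a class with 1, assumed to vary like the others. With 2 libraries a class, calls between neighbouring classes depended on single libraries, and PBAT had 1 library, so its intervals hold no spread between samples. The causes of the changes listed here were not tested.

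From 40–45 against 10–30 μm, the counts of 1388 rising and 1027 falling genes became 591 and 371 with only the classes compared, and 571 to 1546 and 290 to 1375 with 1 library left out. The call of Tbpl2 was lost with only the classes compared (limma adjusted p = 0.099). Nobox ranged from -0.27 to 0.00015 (log2) and Taf4b from -0.029 to 0.020 with 1 library left out, and Taf4b was -0.062 without scaling. From 50–55 against 40–45 μm, the 554 rising and 363 falling genes ranged from 0 to 903 and 0 to 766 with 1 library left out, and 136 fell when any gene above 0 was kept. Without scaling Lhx8 was 0.025, and with 1 library left out it ranged from -0.025 to 0.0028 and Nobox from -0.019 to 0.25. From 60–65 against 50–55 μm, 8 genes rose with a pseudocount of 1, Lhx8 was 0.0096 without scaling and -0.13 to 0.086 with 1 library left out, and Taf4b was -0.037 to 0.046. From 60–65 against 10–30 μm, Lhx8 was -0.20 to 0.018 with 1 library left out. From 60–65 against 40–45 μm, 739 to 2226 genes rose and 569 to 2257 fell with 1 library left out, and Lhx8 was 0.034 without scaling and -0.13 to 0.089 with 1 library left out.

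The letters A and B were checked for pairing: deviations of same-lettered RNA libraries correlated at 0.59 to 0.67 among the 3 smaller classes and at -0.23 to 0.11 between these and 60–65 μm, and those of RRBS libraries at -0.03 to 0.02. A shared letter was therefore seen in some RNA classes and not in all, no source says what it marks, and the fit without it was kept. With the replicate letter as a block, 1009 genes rose and 868 fell from 40–45 to 50–55 μm, and 163 rose and 77 fell from 50–55 to 60–65 μm. Sohlh2 passed in the former (limma adjusted p = 0.015), and Sohlh1 and Sohlh2 in the latter (0.023 and 0.031). Under the block 0 and 82 starts rose from 40–45 to 50–55 and to 60–65 μm, and the Lhx8 body call was lost (limma adjusted p = 0.055).

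RRBS starts that rose from 40–45 to 50–55 μm, 3 in the reported test, numbered 1 with at least 1 call, 10 with at least 10 calls, 0 with pooled calls, strands summed or the percent scale, 6 with 500 bases to each side, 7 with 2 kb, and 0 to 32 with 1 library left out. From 50–55 to 60–65 μm this last range was 0 to 3. From 40–45 to 60–65 μm the 137 became 13 with at least 1 call, 0 on the percent scale and 0 to 151 with 1 library left out. Bodies that rose numbered 1668 with at least 1 call, 4225 pooled, 1517 on the percent scale and 1340 to 4094 with 1 library left out from 40–45 to 50–55 μm. They numbered 0, 2472 pooled and 0 to 1856 from 50–55 to 60–65 μm, and 2079 with at least 1 call from 40–45 to 60–65 μm. In percentage points with 1 library left out, in these 3 comparisons in turn, the Lhx8 start ranged from -0.136 to 0.786, -0.687 to 0.235 and -0.136 to 0.334, and the Taf4b start from -0.481 to 0.197, -0.0779 to 0.586 and -0.227 to 0.451. The Sohlh2 start ranged from 0.641 to 6.77, -5.13 to 1.00 and -0.0584 to 3.34 in the same order. The Lhx8 start from 40–45 to 60–65 μm was -0.0388 with pooled calls and -0.0625 with 2 kb to each side. The Lhx8 body from 50–55 to 60–65 μm was -2.23 with at least 1 call and -1.40 to 4.31 with 1 library left out. Its call from 40–45 to 60–65 μm was also lost with at least 1 call (limma adjusted p = 0.26) and on the percent scale (0.092).

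PBAT values with at least 1 call per position were 10.6% (Sohlh1 body), 5.33% (Sohlh2 start), 11.5% (Sohlh2 body), 7.97% (Nobox start), 10.9% (Figla start), 37.3% (Lhx8 body) and 62.1% (Taf4b body). The Sohlh2 body was 13.3% with at least 3 calls and 13.6% with strands summed, the Lhx8 body 33.6% under either and 29.7% with pooled calls, and the Nobox start 2.98% with 500 bases to each side.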
